A study of Mus musculus with 14 samples.

Results

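The genes described here are 34 lineage genes of lymphocytes, 16 of T cells, 11 of natural killer (NK) cells and 7 of B cells, out of 21212 probe sets measured in lungs of newborn mice. They were chosen by name as markers of these cells, though with earlier results of these data known. Each of the 34 matched 1 probe set. T cells recognise peptides on MHC molecules through a T cell receptor whose signal is carried by the CD3 chains. NK cells carry no such rearranged receptor, weigh signals from activating and inhibitory receptors, and kill with perforin and granzymes. B cells signal through an antigen receptor held by CD79A and CD79B. In the newborn lung all of these cells are a small part of the tissue, which is still forming its alveoli.

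Total RNA from whole dissected lungs, frozen at postnatal day 6 and loaded at 100 ng per array, was measured on 14 Affymetrix mouse Gene ST 1.0 arrays. The mice were C57BL/6J per the labels, and came from intercrosses of Atxn1L or Atxn1 heterozygotes. One set of arrays held 4 Atxn1L -/- mice (gene symbol Atxn1l) and 4 wild types, and the other held 3 Atxn1 -/- mice and 3 wild types. Both deleted genes encode partners of Capicua, a repressor of transcription, and the comparison asks how lung transcripts differ when 1 partner is missing. The labels give both genotypes as -/- with no restriction to the lung or to a cell type. Litter and sex of the mice are not stated in the labels, nor which arrays came from the same pair of mice, and the p-values measure the spread between these samples alone. The sets were normalized apart, and each knockout is therefore compared with its own wild types on the log2 scale of the deposited values.

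The probe set for Atxn1l was at 6.68, 6.93, 7.05 and 6.79 on the Atxn1l knockout arrays and at 9.29 to 9.59 on their wild types. The probe set for Atxn1 was at 10.99 to 11.04 on the arrays labelled Atxn1 -/- and at 10.92 to 11.14 on their wild types. The sources used here do not give the exons that this probe set covers, so it could not check the Atxn1 label, and every direction given below for this set rests on the label. Cic, which encodes Capicua, had a log2 difference of 0.14 in the Atxn1l set and 0.05 in the Atxn1 set, and neither passed in limma. Genes of lung epithelium, endothelium and mesenchyme were high on all arrays, with a mean over 14 such genes of 12.03 to 12.15 on the 8 Atxn1l-set arrays and of 12.51 to 12.60 on the other 6. Neutrophil genes set 1 array of each set apart. The mean of 14 neutrophil genes was 10.09 on Atxn1l knockout replicate 1 against 8.01 to 8.86 on the other 7 arrays, and 10.61 on the Atxn1-set wild type replicate 3 against 8.78 to 9.23 on the other 5. Values without these arrays are given below for some of the genes and means. Xist, an RNA of the inactive X and so a marker of female mice, had a low level on Atxn1l knockout replicate 1 and on 2 of its 4 wild types. In the Atxn1 set it was low on 1 of 3 knockout arrays and on 2 of 3 wild types, so the sexes were unevenly spread over the groups.

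The sequences just upstream of the NK genes are shown because the largest differences among the 34 genes, in the Atxn1l set, lay in this lineage. Runx proteins, T-bet and Eomes (both T-box factors) and ETS factors are known regulators of NK genes. Each line gives the 250 bases before the gene's start from RefSeq (GRCm38.p6), 5′ to 3′ on the gene's own strand. Gzma lies at chr13:113100982-113101231 on the minus strand, Gzmb at chr14:56262335-56262584 on the minus strand, Nkg7 at chr7:43436888-43437137 on the plus strand, Ncr1 at chr7:4337465-4337714 on the plus strand, and Prf1 at chr10:61297586-61297835 on the plus strand. Capitals mark matches, on either strand, to the Runx letters TGTGGT, the T-box letters GGTGTGA or the ETS letters GGAAGT.
Gzma: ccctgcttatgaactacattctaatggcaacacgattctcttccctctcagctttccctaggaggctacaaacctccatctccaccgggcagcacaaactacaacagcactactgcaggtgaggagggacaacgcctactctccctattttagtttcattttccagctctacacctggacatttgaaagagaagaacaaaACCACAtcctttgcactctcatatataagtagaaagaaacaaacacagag
Gzmb: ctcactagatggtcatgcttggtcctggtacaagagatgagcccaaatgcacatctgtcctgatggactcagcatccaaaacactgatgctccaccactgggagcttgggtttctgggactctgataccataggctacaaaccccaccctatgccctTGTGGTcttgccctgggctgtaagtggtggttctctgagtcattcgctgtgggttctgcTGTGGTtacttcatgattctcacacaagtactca
Nkg7: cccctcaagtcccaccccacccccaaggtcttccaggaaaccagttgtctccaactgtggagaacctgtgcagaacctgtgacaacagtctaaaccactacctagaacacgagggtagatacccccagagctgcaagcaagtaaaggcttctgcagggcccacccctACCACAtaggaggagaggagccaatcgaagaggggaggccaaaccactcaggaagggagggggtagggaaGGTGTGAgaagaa
Ncr1: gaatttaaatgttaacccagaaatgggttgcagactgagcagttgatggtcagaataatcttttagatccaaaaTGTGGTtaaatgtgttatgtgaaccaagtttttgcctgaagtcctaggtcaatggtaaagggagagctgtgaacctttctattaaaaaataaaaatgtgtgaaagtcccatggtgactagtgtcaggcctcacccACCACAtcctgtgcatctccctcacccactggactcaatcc
Prf1: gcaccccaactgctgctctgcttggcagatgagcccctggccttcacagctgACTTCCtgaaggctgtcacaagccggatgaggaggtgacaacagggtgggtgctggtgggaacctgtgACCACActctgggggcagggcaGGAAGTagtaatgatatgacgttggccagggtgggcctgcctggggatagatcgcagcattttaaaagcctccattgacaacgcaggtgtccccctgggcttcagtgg
Gzma, Gzmb, Nkg7 and Ncr1 had positive differences in the Atxn1l set, and Prf1 is shown as an NK gene whose difference there was 0.01. All 5 windows held the Runx letters, at bases 50 to 45 before the start in Gzma and at bases 93 to 88 and 34 to 29 in Gzmb. Prf1 held them as well, at bases 130 to 125, so the match did not separate it from the other genes shown. The T-box letters stood once, in Nkg7 at bases 13 to 7, and the ETS letters stood at 2 places in Prf1. The marked matches did not overlap one another.

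Promoter entries were at hand for 25 of the 34 genes. Counted in the first entry of each gene, the Runx letters were in 7 of 9 NK, 1 of 12 T and 1 of 4 B promoters, and in 14.2% of 27025 first entries of this length. The ETS letters were in 3 of 9 NK, 6 of 12 T and 2 of 4 B promoters, against 20.0% of all. The T-box letters were in 1 of 9 NK promoters and in none of the T or B promoters, against 3.31% of all. Later entries held by 4 genes are not in these counts: a second entry of Zap70 held the Runx and ETS letters and a second entry of Tcf7 the ETS letters, which their first entries did not. These matches describe letters in a window and say nothing of whether a factor bound there. Along the genome, Cd3d, Cd3e and Cd3g lie side by side, as do Cd8a with Cd8b1 and Klrd1 with Klrk1, so these genes share a neighbourhood. None of the 34 genes lies on the chromosome of Atxn1l. Gzma lies on that of Atxn1, with 458 protein-coding genes between them.

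None of the 34 lymphocyte genes passed an adjusted p of 0.05 in lungs without Atxn1l, where 9 of 21212 probe sets (0.0424%) passed in limma with Benjamini-Hochberg adjustment. Below that threshold the lineages did not lie alike. NK genes leaned higher in the knockouts, with 10 of 11 log2 differences above 0 and a median of 0.16, beside 51.3% above 0 and a median of 0.003 over all probe sets. B genes had 6 of 7 above 0 with a median of 0.08, and T genes 5 of 16 above 0 with a median of -0.05. At an unadjusted p under 0.05, 5 of 11 NK genes and 1 of 7 B genes were higher, beside 4.54% of all probe sets. Of the 34 genes 0 were lower at that p, beside 3.95% of all probe sets, and 0 of 16 T genes were higher. Up to 3 of 16 T genes were lower at that p under other settings, with 3 under the Xist covariate and 2 with the replicate block, with median centring or without knockout replicate 3. Without knockout replicate 1, 7 of 7 B genes lay above 0 and 3 were higher at that p. Over these settings 1411 to 2156 of 21212 probe sets were under that p in either direction, beside 1802 in the main fit. In bulk lung RNA, fewer cells of a type and less RNA per cell cannot be told apart. Of 16 alternative settings, 1 left out dim probe sets and had 5 of 5 NK genes above 0, and under the others 8 to 10 of 11 were above 0.

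**Figure D1:**
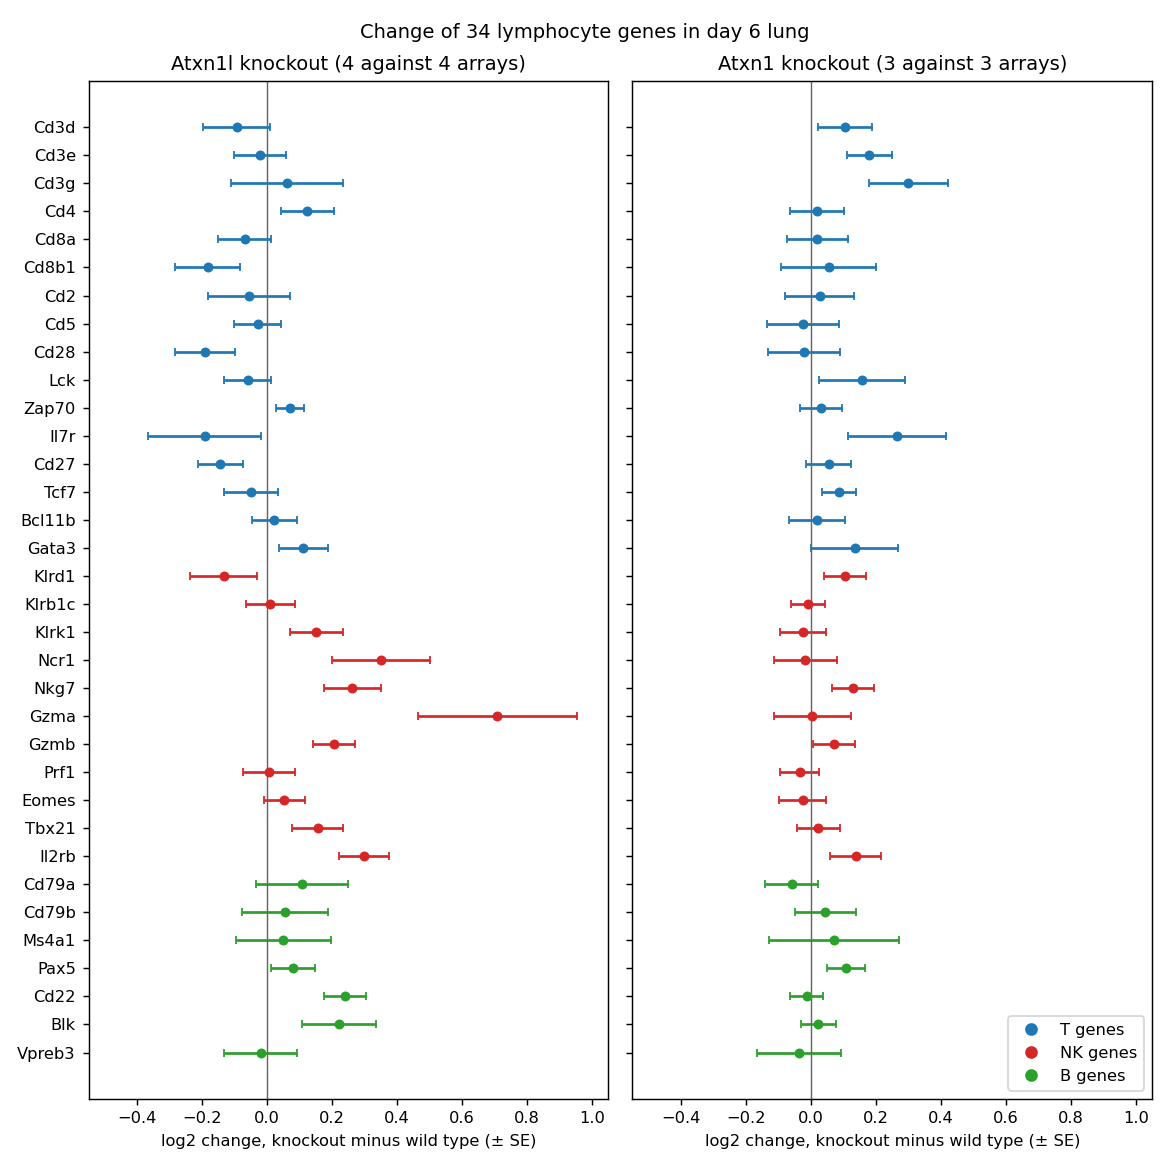
Log2 difference, knockout minus wild type, for each of the 34 genes (rows, grouped as T, NK and B) in the Atxn1l set and the Atxn1 set, with bars for 1 SE of the limma fit to either side. Gzma lies farthest to the right in the Atxn1l set, at 0.71, with the widest bar, an SE of 0.24.

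Among the NK effector genes, Gzma had the largest difference. Gzma encodes granzyme A, a protease of cytotoxic granules, and its log2 levels were 7.46, 7.38, 8.11 and 8.58 on the Atxn1l knockout arrays and 6.99, 7.01, 7.16 and 7.54 on the wild types. Knockout replicates 3 and 4 lay above every wild type, while replicates 1 and 2 lay below the highest wild type, so the groups overlapped. The difference was 0.71 (SE 0.24), a 1.63-fold higher mean, with an adjusted p of 0.482 in limma. It ranged from 0.48 without knockout replicate 4 to 0.88 without knockout replicate 2, so 1 array set a good part of its size.

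Gzmb encodes granzyme B, the granule protease that starts apoptosis in target cells. Its levels were 6.73, 6.77, 6.65 and 6.94 in the knockouts and 6.61, 6.47, 6.60 and 6.59 in the wild types. All 4 knockout arrays lay above all wild types, as 2.76% of all probe sets did. The difference was 0.21 (SE 0.07, adjusted p of 0.432 in limma), at a dim probe set below the 25th percentile of its set of arrays. Prf1, which encodes the pore-forming perforin that lets granzymes into the target, was at 7.34, 7.62, 7.66 and 7.70 against 7.56, 7.57, 7.65 and 7.52. Its groups overlapped widely, with a difference of 0.01 and a 95% interval of -0.17 to 0.18. That interval ended below the fitted differences of both granzymes, and the difference between these genes was not itself tested. Without knockout replicate 1, which lay below every wild type, the Prf1 difference was 0.09. Its sign changed in 8 of 16 alternatives.

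Nkg7, a membrane protein of cytotoxic granules, was at 7.59, 7.50, 7.77 and 7.90 in the Atxn1l knockouts and 7.32, 7.45, 7.52 and 7.44 in the wild types. Replicates 1, 3 and 4 lay above every wild type, and replicate 2 lay just below the highest. The difference was 0.26 (SE 0.09, adjusted p of 0.462 in limma).

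Among NK receptors, Il2rb and Ncr1 differed most. Il2rb, the receptor chain shared by IL-2 and IL-15 and needed for NK survival, was at 7.67, 7.52, 7.67 and 7.83 in the Atxn1l knockouts. The wild types were at 7.28, 7.27, 7.51 and 7.44, so all 4 knockout arrays lay above them, replicate 2 narrowly. The difference of 0.30 (SE 0.08), 1.23-fold, had the smallest p of the 34 genes, 0.003 unadjusted and 0.350 after adjustment in limma. Ncr1 encodes the activating receptor NKp46, found on nearly all NK cells. It was at 6.07, 5.75, 6.42 and 6.55 against 5.88, 5.80, 5.97 and 5.75, with knockout replicate 2 as low as the lowest wild type and the other knockouts above all of them. The difference was 0.35 (SE 0.15, adjusted p of 0.572 in limma).

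The remaining NK receptors were dim. Klrk1, the activating receptor NKG2D, was at 5.44, 5.26, 5.67 and 5.54 against 5.26 to 5.41 in the wild types, a difference of 0.15 with overlap. Klrd1, the CD94 partner of NKG2 receptors, was the only NK gene with a negative difference, -0.13, with replicates 1 and 2 at 5.97 and 6.15 and all other arrays at 6.25 to 6.46, and it was -0.04 without replicate 1. Klrb1c, which encodes NK1.1, had a difference of 0.01, with all 8 arrays between 5.15 and 5.43. At such levels, 6 of 11 NK probe sets lay below the 25th percentile of the Atxn1l set (Klrd1, Klrb1c, Klrk1, Ncr1, Gzmb and Eomes), against 1 of 16 T and 0 of 7 B probe sets. The T-box factors of this lineage, Tbx21 (T-bet) and Eomes, had differences of 0.16 (adjusted p of 0.634 in limma) and 0.05, and the groups overlapped for both.

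**Figure D2:**
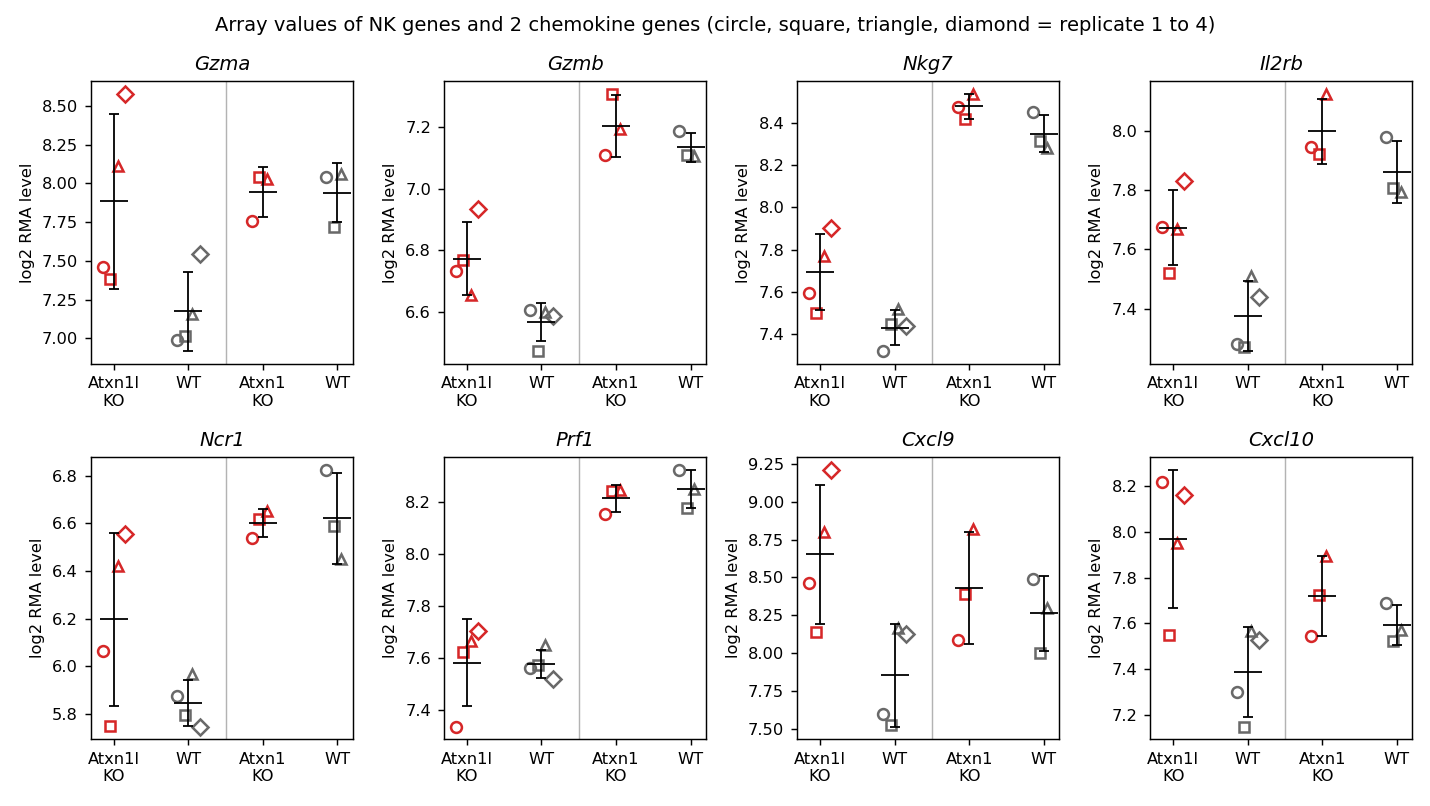
Log2 RMA level on each array (points, symbols by replicate) in both sets for 6 NK genes, Cxcl9 and Cxcl10, with the mean and SD of each group (n = 4 in the Atxn1l set, n = 3 in the Atxn1 set). Levels are comparable within a set only. Among the 8 arrays of the Atxn1l set, knockout replicates 3 and 4 are the highest for Gzma (8.11 and 8.58), Ncr1 (6.42 and 6.55) and Cxcl9 (8.80 and 9.21).

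The same arrays tended to be high for several NK genes. The mean of the 11 NK genes was 6.58, 6.58, 6.81 and 6.91 on knockout replicates 1 to 4 and 6.49, 6.51, 6.59 and 6.53 on the wild types. Replicates 3 and 4 lay above all wild types and replicates 1 and 2 within their range. The mean difference was 0.19 (SE 0.09), 0.12 without knockout replicate 4 and 0.23 without replicate 1. Replicate 1, which carried the high neutrophil genes, was thus not above the wild types in this mean. By single gene it lay above every wild type for Nkg7, Il2rb, Ncr1, Gzmb and Klrk1. It lay below every wild type for Klrd1, Klrb1c and Prf1. The part of neutrophil content in these values was not tested. Within the set, deviations from the group means followed the mean of the other NK genes most closely for Nkg7 (r = 0.94), Ncr1 (0.86) and Gzma (0.81) and least for Klrb1c (0.24), over the same 8 arrays.

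Among genes of lymphocyte trafficking, 2 chemokines had the largest differences. Cxcl9, an interferon-gamma-induced ligand of the receptor CXCR3 on NK and T cells, was at 8.46, 8.14, 8.80 and 9.21 in the Atxn1l knockouts and 7.59, 7.53, 8.17 and 8.12 in the wild types. Knockout replicates 3 and 4 were again the highest, and replicate 2 lay below the highest wild type. The difference was 0.80 (SE 0.23, adjusted p of 0.388 in limma). Cxcl10, another CXCR3 ligand, was at 8.22, 7.55, 7.95 and 8.16 against 7.15 to 7.57, a difference of 0.58 (SE 0.15, adjusted p of 0.332 in limma). Of 15 measured genes of recruitment and adhesion, 13 had a positive difference and none passed after adjustment. At an unadjusted p under 0.05, 4 of the 15 were higher, beside 4.54% of all probe sets. The mean of the 15 genes lay at 8.18 to 8.25 in the knockouts and 8.03 to 8.12 in the wild types. Cxcl12, the homing chemokine of stroma, had a difference of 0.02. Of all other genes on the arrays, those whose deviations were most like the NK mean over 14 arrays were Gm4768 (r = 0.85), Vmn2r105 (0.85), Cxcl9 (0.85), Gm5069 (0.85) and Scd3 (0.84).

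In the wider NK list, 26 of 28 genes were measured and none passed. Sh2d1b1, an adaptor of SLAM-family receptors, had a difference of -0.26 (adjusted p of 0.498 in limma), with replicates 2, 3 and 4 below every wild type. Tyrobp, the adaptor DAP12 of NK and myeloid receptors, had a difference of 0.38 (adjusted p of 0.539 in limma), with the highest value, 11.19, on knockout replicate 1 and the other knockouts within the wild-type range of 10.20 to 10.65. Klrg1, a receptor of mature NK cells, had a difference of 0.11 (adjusted p of 0.562 in limma). In all, 19 of 26 lay above 0 with a median of 0.05. At an unadjusted p under 0.05, 2 of 26 were higher and 1 lower, beside 4.54% and 3.95% of all probe sets. The mean difference of this list was 0.05 (SE 0.03), beside 0.19 for the 11 NK genes. Ccl5, a chemokine made by NK and memory T cells, had a difference of 0.00.

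Among B cell genes, Cd79a and Cd79b, the signalling chains of the B cell receptor, had differences of 0.11 and 0.05. Cd79a was at 8.60, 9.05, 9.38 and 9.12 in the Atxn1l knockouts and 8.80, 8.85, 8.98 and 9.09 in the wild types, so knockout replicate 1 was the lowest of the 8 arrays and replicates 3 and 4 the highest. Ms4a1, which encodes the B cell surface protein CD20, was at 8.41, 8.74, 8.99 and 9.02 against 8.40, 8.83, 8.86 and 8.87, low on replicate 1 of both groups, with a difference of 0.05. Without knockout replicate 1 the differences were 0.25 for Cd79a, 0.18 for Cd79b and 0.18 for Ms4a1, and without knockout replicate 3 those of Cd79a and Cd79b were -0.01 and -0.04. Pax5, the transcription factor that commits cells to the B lineage, had a difference of 0.08, and Vpreb3, a protein of early B cells, -0.02.

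Cd22, an inhibitory receptor that binds sialic acid and dampens B cell receptor signals, was the B gene with the largest difference. It was at 7.98, 7.85, 8.02 and 7.84 in the Atxn1l knockouts and 7.63, 7.70, 7.81 and 7.61 in the wild types. All 4 knockout arrays lay above all wild types, by a narrow gap over wild type replicate 3. The difference was 0.24 (SE 0.06), 1.18-fold, with an adjusted p of 0.366 in limma and a range of 0.20 to 0.28 when each array was left out in turn. Blk, a Src-family kinase of B cells, was at 8.20, 7.83, 7.96 and 8.03 against 7.63, 8.11, 7.76 and 7.64, a difference of 0.22 with overlap, wild type replicate 2 being high. Without knockout replicate 1 it was 0.15. Cd22 and Blk did not follow the other B genes across arrays. Their deviations had r of 0.21 and -0.09 with the mean of the other B genes over 8 arrays, beside 0.93 for Cd79b and 0.85 for Ms4a1.

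The mean of the 7 B genes differed by 0.10 (SE 0.09), at 8.24, 8.41, 8.56 and 8.46 in the Atxn1l knockouts and 8.14, 8.42, 8.39 and 8.31 in the wild types. Leaving out replicate 1 of the knockouts made it 0.16, and leaving out that of the wild types made it 0.05. Without knockout replicate 3, 3 of 7 B genes lay above 0 in place of 6. The count was 4 of 7 without wild type replicate 1 and with the Xist covariate, where the median was 0.01. It was 7 of 7 with array weights and without knockout replicate 1, wild type replicate 2 or wild type replicate 3, so it moved with the setting. Of 28 measured genes of the wider B list, 7 were higher and 1 lower at an unadjusted p under 0.05 and none passed. Of all probe sets, 4.54% were higher and 3.95% lower at that p. Plcg2, a phospholipase downstream of the B cell receptor, had a difference of 0.41 (adjusted p of 0.251 in limma) with all 4 knockouts at 8.69 to 9.05 and the wild types at 8.43 to 8.61. Cd72, a B cell receptor of the C-type lectin family, had 0.62 (adjusted p of 0.327 in limma), with 8.53 on knockout replicate 1. Cd38, an ectoenzyme of B and other cells, had -0.20 (adjusted p of 0.420 in limma). Among the genes most like the B mean over 14 arrays were Btla (r = 0.92), Themis (0.91), Stk38l (0.91) and Iglj1 (0.90).

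Plcg2, Cd72, Syk, Btk and Tyrobp are also known in macrophages, and macrophage genes stood higher in these lungs. The mean of 12 macrophage genes was 9.06 to 9.64 in the Atxn1l knockouts and 8.65 to 8.76 in the wild types, with 11 of 12 above 0 and 2 passing the adjusted threshold. Genes shared by all leukocytes, such as Ptprc and Coro1a, had 12 of 12 differences above 0, with a mean of 9.65 to 10.07 against 9.44 to 9.66. Neutrophil genes had 14 of 14 above 0, with a mean of 8.52 to 10.09 against 8.01 to 8.69. Their mean difference of 0.73 was 0.38 without knockout replicate 1, while that of the macrophage genes was 0.55 and 0.42 without it. The part of these cells in the differences of NK and B genes was not tested.

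**Figure D3:**
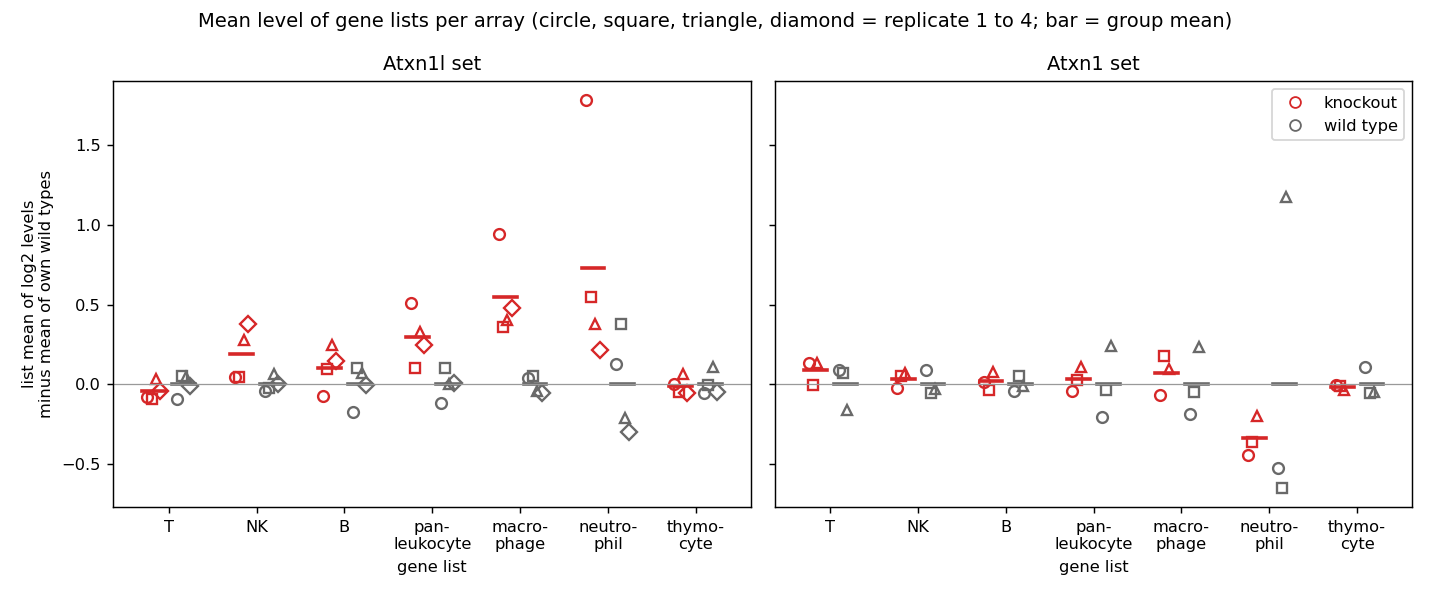
Mean log2 level per array over the genes of each list, drawn as the deviation from the mean of the wild types of the same set, for the lymphocyte lineages and 4 lists of other cells (points by replicate, bars at group means). In the Atxn1l set macrophage genes are above all wild types on every knockout array, while T cell genes overlap between the groups.

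T cell genes lay close to the wild types in the Atxn1l set. The CD3 chains had differences of -0.09 (Cd3d), -0.02 (Cd3e) and 0.06 (Cd3g), and their groups overlapped. Without knockout replicate 1 that of Cd3g was -0.09 and that of Cd3e -0.08. Cd3g was at 9.14, 8.25, 8.64 and 8.72 in the knockouts and 8.38, 8.95, 8.58 and 8.59 in the wild types, so knockout replicate 1 was the highest and replicate 2 the lowest of the 8 arrays. Its 95% interval, -0.32 to 0.45, leaves room for a difference in either direction, while that of Cd3e was -0.20 to 0.16. Among the coreceptors, Cd4, which binds MHC class II, had a difference of 0.12, and Cd8a and Cd8b1, which bind MHC class I, had -0.07 and -0.18. Cd8b1 was at 7.48, 7.84, 8.03 and 7.80 against 7.93, 8.03, 8.01 and 7.92, with 3 of 4 knockouts below all wild types and replicate 1 the lowest, and its difference was -0.08 without that array.

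The costimulatory receptors Cd28 and Cd27 also had negative differences. Cd28, the receptor for the B7 ligands, was at 6.84, 6.96, 7.21 and 6.96 against 7.01, 7.13, 7.22 and 7.36, a difference of -0.19 (SE 0.09, adjusted p of 0.622 in limma) with replicate 3 inside the wild-type range. Cd27, a TNF-receptor family member, had -0.14 (adjusted p of 0.620 in limma). Il7r, the IL-7 receptor chain that keeps naive T cells and innate lymphoid cells alive, had -0.19, at 8.61, 7.69, 8.12 and 8.24 against 8.26, 8.67, 8.20 and 8.30. It was high on replicate 1 and low on replicate 2, the same order as for Cd3g, and leaving out those arrays gave differences of -0.34 and -0.03. Cd2, an adhesion receptor, and Cd5, which dampens T cell receptor signals, had -0.06 and -0.03, with that of Cd2 at 0.08 without replicate 1.

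The kinases of the T cell receptor, Lck and Zap70, had differences of -0.06 and 0.07. Zap70 was at 7.13, 7.02, 7.06 and 7.07 against 6.97 to 7.02, a narrow spread in which 3 of 4 knockouts lay above all wild types. The transcription factors Tcf7, Bcl11b and Gata3, needed early in T cell development, had differences of -0.05, 0.02 and 0.11, with that of Tcf7 at 0.01 without knockout replicate 1. Gata3, which type 2 innate lymphoid cells and lung epithelium can also express, went against the rest of its lineage across arrays, with r of -0.67 with the mean of the other T genes over 8 arrays. The mean of the 16 T genes was 7.886, 7.878, 8.004 and 7.927 in the knockouts and 7.877, 8.022, 8.015 and 7.958 in the wild types, a difference of -0.04 (SE 0.04). Over all alternatives run on this set it stayed between -0.07 and -0.03.

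In the wider T list none of 30 genes passed in the Atxn1l set, with 2 higher and 2 lower at an unadjusted p under 0.05 and a median of 0.01. Of all probe sets, 4.54% were higher and 3.95% lower at that p. Runx3, a factor of CD8 T cells, NK cells and macrophages, was at 8.34, 8.20, 8.25 and 8.25 against 7.89, 8.13, 7.69 and 7.94, a difference of 0.35 (SE 0.08, adjusted p of 0.327 in limma) with no overlap. Lcp2, the adaptor SLP-76, had 0.45 (adjusted p of 0.327 in limma), with 10.44 on replicate 1. Themis, a regulator of thymocyte signalling, had -0.28 (adjusted p of 0.527 in limma), at 6.24, 6.61, 6.73 and 6.55 against 6.60, 6.88, 6.92 and 6.84. Marker lists were also set up for tissue that a dissection could carry along. Their mean differences were -0.01 (SE 0.05) for thymocytes, 0.06 (SE 0.05) for thymic stroma and -0.08 (SE 0.04) for lymph node. The thymocyte list had 6 of 10 above 0, a mean of 6.89 to 7.01 in the knockouts and 6.89 to 7.06 in the wild types, and Rag1, Rag2 and Dntt below the 25th percentile. The thymic stroma list had 8 of 8 above 0, at 7.47 to 7.55 against 7.37 to 7.54. The lymph node list had 3 of 6 above 0, at 6.86 to 7.04 against 6.96 to 7.05. Of this list Chst4, a sulfotransferase of high endothelial venules, passed with a difference of -0.59 (adjusted p of 0.008 in limma). Chst4 is also a neighbour of the deleted Atxn1l in the genome, and the part of that position in its difference was not tested. The part of these tissues in the lymphocyte values was not tested either.

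**Figure D4:**
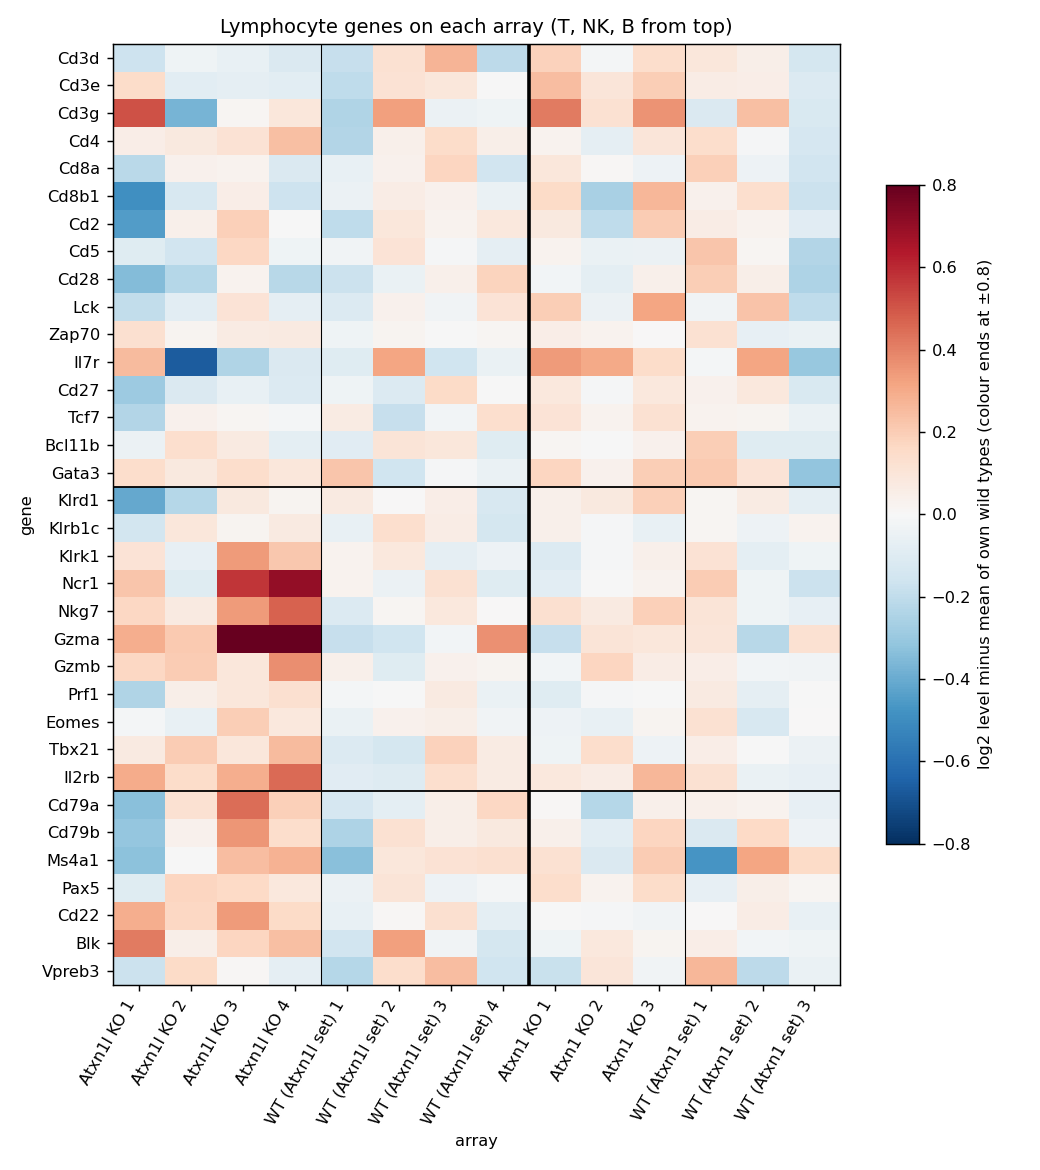
Deviation of each array from the mean of the wild types of its set (colour, log2) for the 34 genes (rows) on the 14 arrays (columns). Gzma on Atxn1l knockout replicates 3 and 4 (8.11 and 8.58) lies beyond the end of the colour scale. Most T cell rows of the Atxn1 set are blue on its wild type replicate 3.

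In the Atxn1 set no lymphocyte gene passed, and neither did any of the 21212 probe sets (0.0% in limma with Benjamini-Hochberg adjustment), of which 258 had an unadjusted p under 0.05. Here the T genes leaned higher on the knockout arrays. Of 16 T genes 14 had a positive difference, with a median of 0.05, beside 47.3% of all probe sets and a median of -0.004. NK genes had 6 of 11 above 0 with a median of 0.004, and B genes 4 of 7 with a median of 0.02. The NK count moved with the setting: it was 10 of 11 under joint quantile normalization, under cyclic loess and without wild type replicate 1, and 4 of 11 without knockout replicate 2. At an unadjusted p under 0.05, 2 T genes were higher, beside 0.75% of all probe sets. The NK and B genes held none, and 0 of the 34 genes were lower, beside 0.467%.

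Both of those T genes encode CD3 chains. Cd3e was at 9.59, 9.44 and 9.55 on the arrays labelled Atxn1 -/- and 9.41, 9.40 and 9.24 on the wild types, so all 3 knockouts lay above all wild types, as 2.85% of all probe sets did. The difference was 0.18 (SE 0.07, unadjusted p = 0.036 and adjusted p of 0.9999 in limma). Cd3g was at 9.17, 8.87 and 9.11 against 8.63, 8.99 and 8.63, a difference of 0.30 (SE 0.12, unadjusted p = 0.044 and adjusted p of 0.9999 in limma), with knockout replicate 2 inside the wild-type range. Cd3d, between them on the chromosome, had 0.10 at a dim probe set. Il7r had the next largest difference, 0.26 (SE 0.15), at 8.58, 8.55 and 8.39 against 8.23, 8.56 and 7.94, where wild type replicate 3 was the lowest array.

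That array, replicate 3 of the wild types, was also the one with high neutrophil genes. It was the lowest of the 6 arrays for Cd3d, Cd3e, Cd3g (by less than 0.01), Cd4, Cd8a, Cd28, Lck, Il7r, Cd27, Tcf7 and Gata3, as well as for Cd5, and Gata3 was at 9.02 there and at 9.37 to 9.54 on the other 5. The mean of the 16 T genes was 8.72, 8.57 and 8.71 in the knockouts and 8.67, 8.65 and 8.42 in the wild types, a difference of 0.09 (SE 0.09). Without wild type replicate 3 the difference was 0.01, with 7 of 16 T genes above 0, so the lean of the T genes rested on that array. The count at an unadjusted p under 0.05 was 0 without it, and likewise 0 without knockout replicate 1 or knockout replicate 3. With array weights it was 13 of 16, in a fit where 4131 of 21212 probe sets had such a p in either direction. The smallest difference of Cd3e when any array was left out was 0.13 and that of Cd3g 0.24, both without that array. Without it, the difference of Il7r was 0.11 in place of 0.26, and that of Gata3 -0.02 in place of 0.13. Those of Cd28 and Cd5 were then both -0.14 in place of -0.02. The part of neutrophil content in the T values of that array was not tested.

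In the Atxn1 set 0 NK or B genes had an unadjusted p under 0.05. With array weights 4 of 11 NK genes and 1 of 7 B genes were higher at that p. Of all 21212 probe sets 4131 were under it in that fit, in either direction. Without wild type replicate 1 the count was 2 NK genes, beside 936 probe sets. Under joint quantile normalization and cyclic loess it was 1 NK gene each, beside 352 and 371 probe sets. Gzma was at 7.76, 8.04 and 8.03 against 8.04, 7.72 and 8.06, a difference of 0.00 with a 95% interval of -0.27 to 0.28. Il2rb was at 7.95, 7.92 and 8.12 against 7.98, 7.81 and 7.79, a difference of 0.14 with overlap. Nkg7 had 0.13, Klrd1 0.10 and Gzmb 0.07, and the other 6 NK differences besides Il2rb and Gzma lay between -0.04 and 0.02. Cd22 was at 8.75, 8.74 and 8.72 against 8.75, 8.81 and 8.69, a difference of -0.01. Pax5 had the largest B difference, 0.11 (SE 0.06), with 2 of 3 knockouts above all wild types. Of the wider lists, 1 of 30 T genes was higher at an unadjusted p under 0.05 and 0 of 26 NK and 0 of 28 B genes differed in either direction. Of all probe sets, 0.75% were higher and 0.467% lower at that p. The T gene was Il2ra, the IL-2 receptor chain of activated and regulatory T cells, with a difference of 0.17 and all 3 knockouts above all wild types. Cxcl9 had 0.17 with overlap, and Cxcl10 had 0.13.

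The difference between the knockouts was tested as a contrast of both effects, each against its own wild types. No lymphocyte gene passed, where 2 of 21212 probe sets (0.00943%) did in limma. Cd22 had the smallest p of the 34, with a difference of 0.25 (SE 0.09, unadjusted p = 0.012, adjusted p of 0.9996 in limma), higher in the Atxn1l set. Gzma had 0.70 (SE 0.33, unadjusted p = 0.053, adjusted p of 0.9996 in limma). Il7r and Cd3e lay the other way, at -0.46 (SE 0.26) and -0.20 (SE 0.12). The lean of NK genes in the Atxn1l set and of T genes in the Atxn1 set was therefore not shown to differ between the knockouts for any single gene.

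The T genes varied together across arrays to an extent that was not tested between the sets. In the Atxn1 set 14 of the 16 T genes had r above 0.5 with the mean of the other T genes over 6 arrays. The highest were Cd3d (0.98), Cd3e (0.97), Gata3 (0.96) and Cd27 (0.96). In the Atxn1l set 6 of 16 had r above 0.5 over 8 arrays. The highest there were Cd5 (0.72), Cd4 (0.64) and Lck (0.64), and the lowest was Gata3 (-0.67). Each r sets a gene against genes of the same arrays, so an array that stands apart enters both sides. Over all 14 arrays the genes outside the list most like the T mean were Cnga1 (r = 0.92), Vmn1r210 (0.87), Atad3a (0.86), Cyp27a1 (0.85) and Gm4825 (0.85), of which none is a gene of the wider T list.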

How the data were processed

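Total RNA of 14 mouse lungs was measured on 14 arrays. The authors deposited log2 values made with RMA, run separately on the 8 arrays of the Atxn1l set and the 6 of the Atxn1 set, per the labels and the submitters' processing notes. These notes also name limma, and give no versions. The values were used as deposited, 1 probe set per Entrez gene number; the probe set definition and genome build are not given in the sources used here. Of 21212 probe sets, 18786 had 1 symbol in the platform table, 6 several and 2420 none; 1917 of the latter, Lck and Tcf7 among them, were named by gene number through RefSeq (GRCm38.p6).

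Knockout minus wild type was fitted within each set in R 4.3.3 by lmFit and eBayes of limma 3.58.1 (two-sided, Benjamini-Hochberg over all 21212 probe sets, threshold 0.05). The difference between knockouts was a contrast in 1 fit of 14 arrays. Standard errors, p-values and intervals of genes are limma's; those of lineage means come from the spread between arrays, with no test. Probe sets below the 25th percentile of their set are called dim. The number of arrays limits the precision. On simulated data with known changes, 76 of 100 genes with a log2 change of 0.5 were recovered with the arrays of the Atxn1l set. With those of the Atxn1 set it was 57 of 100. Those data also held 100 genes with a change of 1, while 9 and 0 probe sets passed in the measured sets. The adjustment is milder when more genes change, so these shares do not give the chance of recovering a lymphocyte gene here. Median SDs of the T, NK and B genes were 0.131, 0.124 and 0.193 in the Atxn1l set, beside 0.093 over all probe sets. In the Atxn1 set they were 0.145, 0.082 and 0.111, beside 0.089.

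The 34 genes, the other gene lists (239 of 252 memberships matched) and the tests were chosen with earlier results of these data known. Named are all 34 genes, Atxn1, Atxn1l and Cic, up to 3 genes of smallest p from each other list, those past the threshold, and up to 5 genes most correlated with each lineage mean (1 result is not reported here); Ccl5, Cxcl12, Syk, Btk, Ptprc, Coro1a, Rag2 and Dntt were named after their values were seen. The labels do not tell which arrays form a pair, so the main fits used no pairing. Same-numbered arrays did not deviate together throughout, which cannot show that pairing was absent. Alternatives were a replicate block, eBayes with trend and robust, cyclic loess, median centring, array weights, quantile normalization of all arrays together, leaving out dim probe sets, a threshold of 0.1 and leaving out each array; an Xist covariate was added after seeing the data. Promoters came from RefSeq, without the transcribed bases.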

Additional observations from a re-analysis of the deposited data

Results flagged for a closer look

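In groups of 4 arrays, the level of each of the 34 genes and of the lineage means was checked for 1 array lying far from the other 3 by Dixon's ratio. Of 74 groups checked, 3 had such an array, where chance gives about 1 in 20. Cd3e was at 9.05 on Atxn1l knockout replicate 1 and at 8.81 to 8.83 on the other knockouts. Gzmb was at 6.47 on wild type replicate 2 of the Atxn1l set and at 6.59 to 6.61 on the other wild types. Ms4a1 was at 8.40 on wild type replicate 1 of that set and at 8.83 to 8.87 on the others. Leaving out that array turned the Ms4a1 difference from 0.05 to -0.06. Leaving out the outlying Gzmb array took its difference from 0.21 to 0.17. Cd3e had a difference of -0.08 without knockout replicate 1, in place of -0.02.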

How the results depend on the processing

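None of the 34 genes passed in any comparison under any alternative run (17 in the Atxn1l set, 15 in the Atxn1 set and 23 for the difference), and 164 of 1746 alternative values of single genes had the opposite sign. The number of all probe sets passing was less stable. With the replicate number as a block it was 2 in place of 9 in the Atxn1l set and 1 in place of 2 for the difference, and no lymphocyte gene passed under the block. Whether the numbers pair the samples cannot be told from so few arrays. Correlations of same-numbered deviations were 0.09, 0.04, 0.23 and 0.38 in the Atxn1l set and 0.00, -0.42 and 0.42 in the Atxn1 set. A sample correlated best with its own number for 2 of 4 and 1 of 3 numbers. With array weights, 1 probe set passed in the Atxn1 set in place of 0, and 4 passed for the difference. The T lineage difference in the Atxn1 set was then 0.23 in place of 0.09. Wild type replicate 3 had a weight of 6.38 and wild type replicate 1 of 0.16. An unadjusted p under 0.05 was held in that fit by 13 of 16 T genes and by 4131 of 21212 probe sets. Leaving out 1 array gave 2 to 25 passing probe sets in the Atxn1l set, with 25 without wild type replicate 4, 19 without knockout replicate 2, 16 without knockout replicate 1, 4 without knockout or wild type replicate 3, 3 without wild type replicate 1 and 2 without knockout replicate 4 or wild type replicate 2. It gave 0 in the Atxn1 set each time and 1 or 2 for the difference. The cause of these changes was not tested. The B lineage difference of 0.02 in the Atxn1 set ranged from -0.01 to 0.05.

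The other lineage differences kept their sign. That of the NK genes in the Atxn1l set ranged from 0.12 without knockout replicate 4 to 0.29 with dim probe sets left out, and was 0.16 with the Xist covariate. That of the B genes ranged from 0.05 to 0.16. With 4 or 3 mice per group, the SE of a single NK gene in the Atxn1l set was up to 0.24, and 6 of 11 NK probe sets were dim, which limits what these arrays can resolve.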
